A study of Mus musculus with 11 samples.

Results

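Lungs of mice given aspirin alone were compared with lungs of mice given triptolide alone, on 6 of the 11 arrays of the series, the 3 titled aspirin and the 3 titled triptolide. The comparison covers 19166 autosomal genes of the 19938 genes tested, each read from the row of the deposited table with exactly 1 gene symbol, and from the row with the highest mean where a gene had several. Aspirin was given at 4 mg/kg and triptolide at 1 mg/kg, by gavage, 5 days a week for 2 months, to mice of strain 129S1. Besides these, the series holds 3 arrays of lungs from mice given both drugs at the same doses and 2 control arrays, which enter the estimate of the spread and are given below beside the results. The controls are titled untreated, while the treatment protocol lists a group given PBS buffer, so it is unclear from the labels whether the control mice received buffer by gavage. No label gives the sex or age of the mice or the time of day of collection, and none says that the replicates are separate animals, so p-values measure the spread between these samples.

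Aspirin acetylates the cyclooxygenases, the enzymes that make prostaglandins in many cells and thromboxane in platelets. Triptolide, a diterpenoid of the thunder god vine, binds XPB, the product of Ercc3 and a subunit of the general transcription factor TFIIH, and blocks transcription. In cultured human cells triptolide is known to block the induction of heat shock genes, which encode chaperones that keep proteins folded and are switched on by the transcription factor Hsf1.

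All values are log2 levels as the authors deposited them, and differences are aspirin minus triptolide with their standard error (SE). Array medians lay between 8.135 and 8.254. The genes that mark sex chromosomes did not read alike within the triptolide group. Xist, transcribed from the inactive X chromosome, was at 7.0, 6.86 and 6.77 with aspirin and at 12.32, 9.75 and 6.61 with triptolide. Eif2s3y, from the Y chromosome, was at 9.26, 9.48 and 9.45 with aspirin and at 6.39, 9.82 and 9.56 with triptolide. Triptolide 3 therefore read like the 3 aspirin arrays in these genes, triptolide 1 read like the controls (Xist at 11.98 and 12.07), and triptolide 2 read high in both. For this reason the main results are also given against triptolide 3 alone or without triptolide 1. The combination arrays read like the controls, with Xist at 12.26, 12.8 and 12.31. Eif2s3y was at 5.4, 4.58 and 6.76 on the combination arrays and at 5.29 and 5.05 on the controls. Differences of aspirin or triptolide from the control or combination arrays, given below, therefore cannot be told apart from this pattern. On the triptolide side this holds for triptolide 2 and triptolide 3, with Eif2s3y at 9.82 and 9.56. Combination 1 stood apart from the other arrays, with the proliferation gene Mki67 at 12.60 and between 8.13 and 9.19 on all the others.

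No gene differed between aspirin and triptolide at an adjusted p under 0.05 in limma, which is 0% of the 19166 autosomal genes, and the smallest adjusted p was 0.960. At an unadjusted p under 0.05 stood 627 genes (3.27%), of which 294 (1.53%) were higher and 333 (1.74%) lower with aspirin. Quantile normalization turned that split to 461 higher and 287 lower. The count of 627 moved to 334 without aspirin 1, 1254 without aspirin 2, 1033 without triptolide 1, 311 without triptolide 2 and 1150 without combination 1. An alternative fit with gene-by-gene array weights was chosen after seeing the data, and in it 131 genes passed (51 higher, 80 lower). It gave aspirin 3 a weight of 5.99, against 0.443 and 0.62 for aspirin 1 and aspirin 2. Triptolide 3 had a weight of 3.30, against 0.907 and 0.325 for triptolide 1 and triptolide 2, and combination 1 had 0.149. Among the 6 arrays compared, that fit therefore leaned mostly on aspirin 3 and triptolide 3. The 3 aspirin arrays did not overlap the 3 triptolide arrays in 1893 genes (9.88%), of which 773 (4.03%) lay higher and 1120 (5.84%) lower with aspirin.

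Most differences were small, with 10199 genes (53.2%) above and 8967 (46.8%) below 0. The median over the autosomal genes was 0.01, the quartiles were -0.08 and 0.09, and the median SE was 0.115. A difference of 0.5 or more was measured in 170 genes (0.887%), with 61 (0.318%) above and 109 (0.569%) below 0. A difference of 1 or more was measured in 15 genes (0.0783%), with 10 (0.0522%) above and 5 (0.0261%) below 0. Across genes, 2 aspirin arrays correlated at 0.9852 to 0.9935, 2 triptolide arrays at 0.9882 to 0.9931, and an aspirin with a triptolide array at 0.9804 to 0.9947, so the range between the drugs spanned the ranges within them. The genes are not independent replicates of each other.

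**Figure D1:**
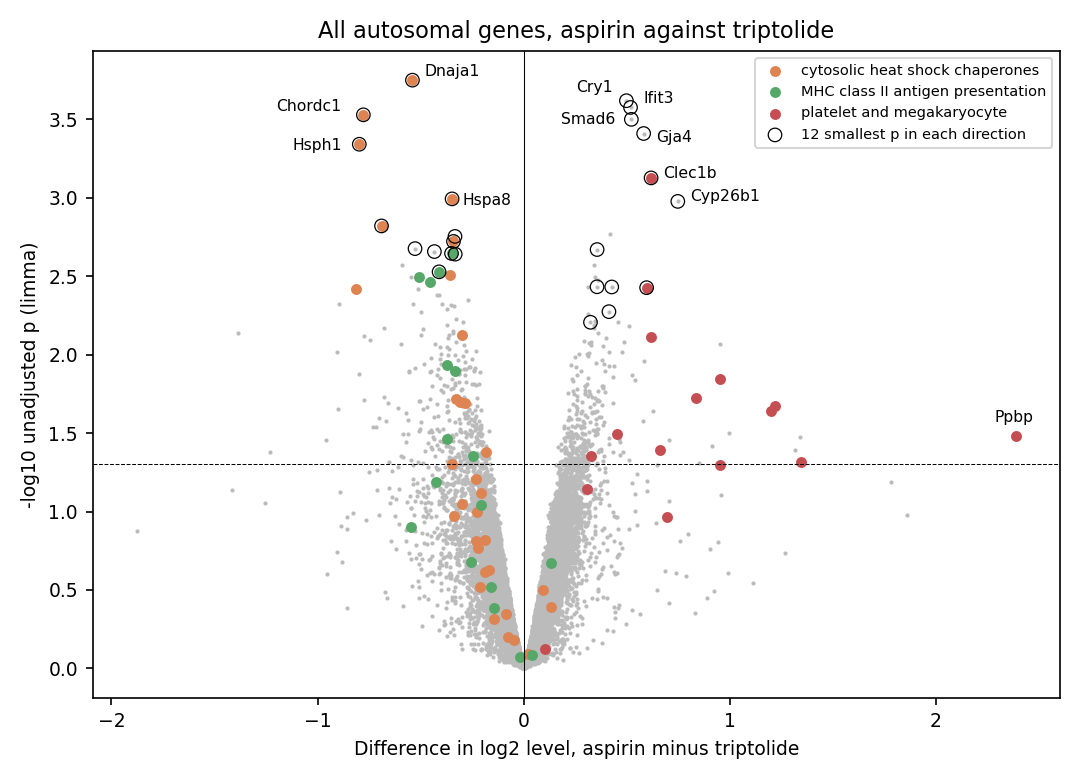
Difference in log2 level (aspirin minus triptolide, horizontal axis) against -log10 of the unadjusted limma p (vertical axis) for the 19166 autosomal genes, with members of 3 gene lists coloured, the 12 genes of smallest p in each direction circled, and a dashed line at an unadjusted p of 0.05. Chaperone genes sit at the upper left, with Hsph1 at -0.80, and platelet genes on the right, with Ppbp at 2.39; no gene passed the adjusted threshold.

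Among the 12 lower genes with the smallest p, 6 encode chaperones or their partners: Dnaja1, Chordc1, Hsph1, Hspa8, Dnajb1 and Cacybp. None of these passed the adjusted test, where each had a limma adjusted p of 0.960. They were picked by smallest p, so the separation of their arrays, given below, is not separate support. Matches to the letters of the binding site of Hsf1, GAANNTTC or TTCNNGAA, are in capitals. No RefSeq promoter was found for Hspa8. The promoters of the first 3 genes were chosen by smallest p, whether or not they held a match. Each is the RefSeq promoter on GRCm38.p6 (250 bases before the start of transcription to 50 after), 5′ to 3′ on the gene's strand, at chr4:40722218-40722517 (plus strand), chr9:18292017-18292316 (plus strand) and chr5:149636287-149636586 (minus strand); where RefSeq has several promoters of a gene, the one with the most matches is shown.
Dnaja1: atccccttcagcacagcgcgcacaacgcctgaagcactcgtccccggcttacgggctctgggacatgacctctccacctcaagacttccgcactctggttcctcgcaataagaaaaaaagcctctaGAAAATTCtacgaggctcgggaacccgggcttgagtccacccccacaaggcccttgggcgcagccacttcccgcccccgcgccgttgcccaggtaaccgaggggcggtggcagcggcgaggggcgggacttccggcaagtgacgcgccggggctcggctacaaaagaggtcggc
Chordc1: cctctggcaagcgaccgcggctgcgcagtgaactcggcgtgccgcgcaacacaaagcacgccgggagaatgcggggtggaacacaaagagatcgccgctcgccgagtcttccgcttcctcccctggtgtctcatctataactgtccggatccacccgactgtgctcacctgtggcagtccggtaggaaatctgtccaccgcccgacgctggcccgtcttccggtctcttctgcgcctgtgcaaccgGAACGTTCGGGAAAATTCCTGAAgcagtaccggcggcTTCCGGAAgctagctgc
Hsph1: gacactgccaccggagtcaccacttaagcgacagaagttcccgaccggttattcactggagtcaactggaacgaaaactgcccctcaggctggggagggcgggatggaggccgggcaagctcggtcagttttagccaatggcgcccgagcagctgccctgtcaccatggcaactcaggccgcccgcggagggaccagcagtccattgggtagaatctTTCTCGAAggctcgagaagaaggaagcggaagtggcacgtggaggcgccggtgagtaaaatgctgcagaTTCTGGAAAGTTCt
Both letter strings are their own reverse complements, so that each match reads on both strands, and overlapping matches were counted. There is 1 match in the Dnaja1 window, 5 in Chordc1 and 3 in Hsph1. RefSeq promoters were found for 28 of the 32 measured chaperone genes, and 14 of the 28 (50%) held a match, against 17.0% of 27025 genes with a promoter. By promoter, 16 of 37 (43.2%) held one, against 15.1% of all 32851. The list was assembled as heat shock chaperones, which Hsf1 switches on, so its share of matches does not bear on the drugs. A match describes these letters and not binding.

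Dnaja1, a J-domain co-chaperone of Hsp70, read 10.52, 10.68 and 10.69 with aspirin and 11.11, 11.14 and 11.26 with triptolide, a difference of -0.54 ± 0.10. All 3 aspirin arrays lay below all 3 triptolide arrays. Chordc1, a co-chaperone of Hsp90, read 8.76, 9.27 and 9.26 with aspirin and 9.72, 10.02 and 9.88 with triptolide (-0.78 ± 0.15). Chordc1 also kept the groups apart, with aspirin 1 the lowest array. Hsph1, the Hsp110 nucleotide exchange factor of Hsp70, read 8.94, 9.14 and 8.65 with aspirin and 9.89, 9.44 and 9.78 with triptolide (-0.80 ± 0.16). Again no aspirin array reached a triptolide array.

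Hspa8, the constitutive Hsp70, read 12.94, 13.12 and 12.93 with aspirin and 13.37, 13.31 and 13.35 with triptolide (-0.35 ± 0.08). Dnajb1, the stress-induced J-domain partner of Hsp70, read 9.11, 9.35 and 9.02 with aspirin and 9.70, 9.82 and 10.02 with triptolide (-0.69 ± 0.16). Both genes kept the groups apart. Cacybp, a partner of the Hsp90 and ubiquitin systems, read 10.64, 10.73 and 10.58 with aspirin and 11.04, 10.94 and 10.99 with triptolide (-0.34 ± 0.08). Hspa1a, the inducible Hsp70, read 8.99, 9.22 and 9.01 with aspirin and 9.55, 9.61 and 10.48 with triptolide (-0.81 ± 0.22). Triptolide 3 was the highest array in Hspa1a. This gene has a near-identical neighbouring copy, and a probe set may read both.

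Over the list of cytosolic heat shock chaperones, 29 of 32 measured members lay below 0 and 3 above, with a median of -0.231, against 0.01 over all autosomal genes. The groups did not overlap in 18 members (56.2%), all lower with aspirin, where 5.84% of all autosomal genes did so. An unadjusted p under 0.05 was found in 14, as in 1.74% of all autosomal genes in that direction. No member passed the adjusted test. The gene lists and their members were chosen with earlier results of these data known. This list and most of those below were also picked for description by their extreme medians in this comparison. Shares of list members set beside shares of all autosomal genes, here and below, are therefore descriptive and not separate support. Members of the chaperone list ranged from -0.81 for Hspa1a to 0.14 for Cryab. The level of the list, the mean of its members after each was centred on its mean over the 11 arrays, was -0.22, -0.08 and -0.19 on the aspirin arrays and 0.07, 0.11 and 0.18 on the triptolide arrays. No aspirin array reached a triptolide array. Against triptolide 3 alone, whose Xist and Y-linked levels matched aspirin, the median was -0.300. In 28 of 32 members (87.5%) triptolide 3 lay above all 3 aspirin arrays, where it did in 21.6% of all autosomal genes. Triptolide 3 is a single array, the highest of the 11 in this list and also in the list of cardiac muscle genes, at 0.80. Without triptolide 1 the median was -0.305, with 23 of 32 members (71.9%) apart against 14.3% of all autosomal genes.

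In mean list level the controls lay between the drugs. The list stood at -0.13 and -0.02 on the controls and at 0.10, 0.08 and 0.11 on the combination arrays, so that the combination was near triptolide. The 2 differences from control share the control arrays. Those arrays also differed from aspirin, and from triptolide 2 and triptolide 3, in Xist and Y-linked levels. The median of the chaperones was -0.118 for aspirin minus control and 0.129 for triptolide minus control. Hsph1 lay -0.12 ± 0.18 from control with aspirin and 0.68 ± 0.18 from control with triptolide. Dnaja1 lay -0.26 ± 0.11 from control with aspirin and 0.28 ± 0.11 with triptolide.

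**Figure D2:**
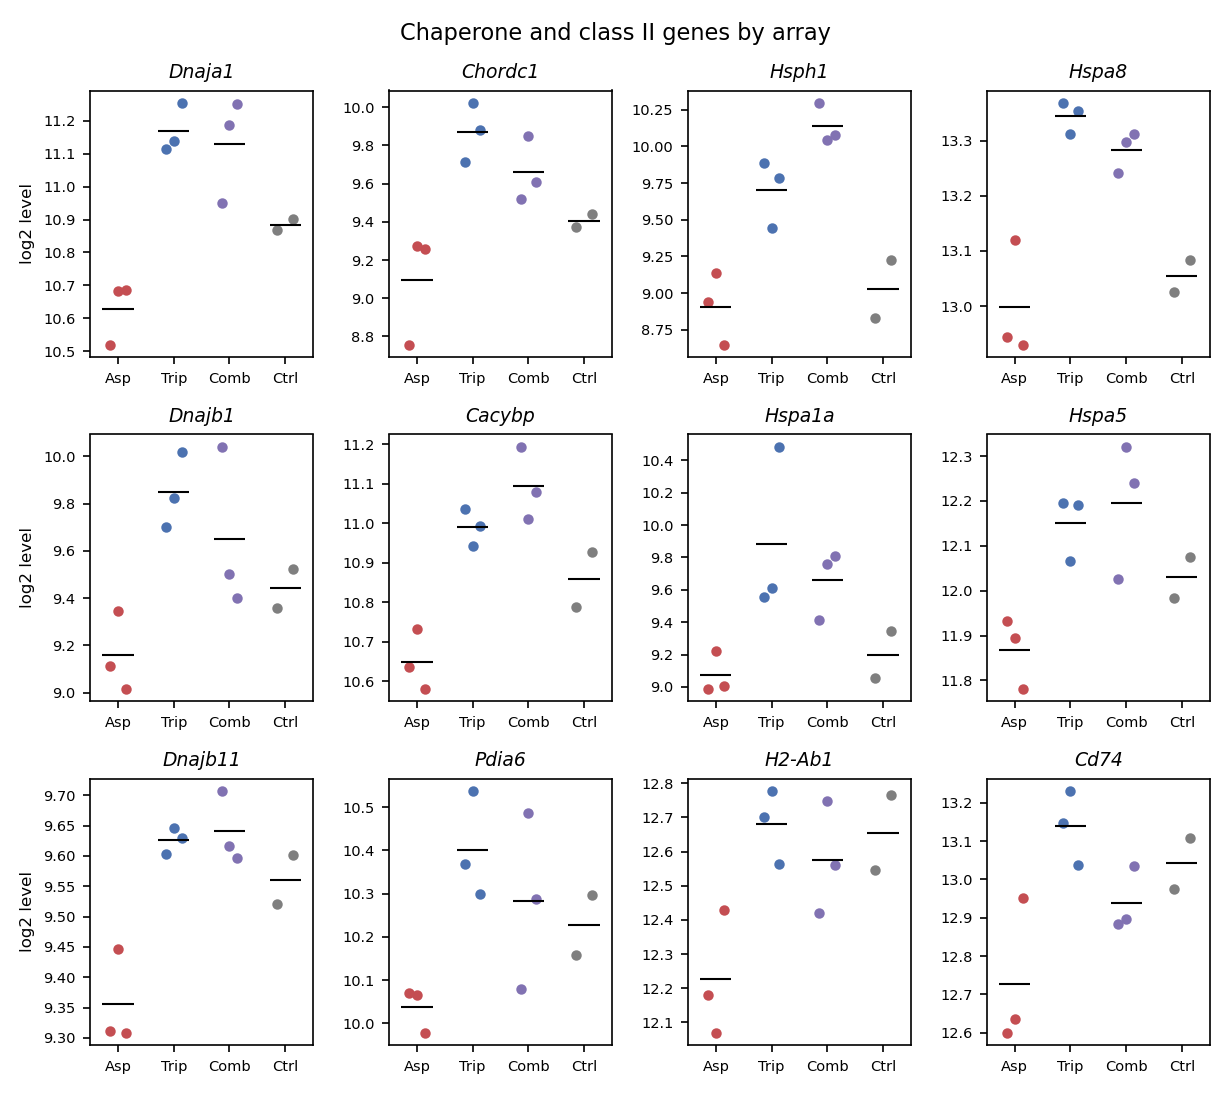
Log2 level on each array (vertical axes, each with its own range) of 12 chaperone and MHC class II genes, for aspirin (Asp, red), triptolide (Trip, blue), the combination (Comb, purple) and control (Ctrl, grey); bars are group means. In every panel the 3 aspirin points lie below the 3 triptolide points, for Dnaja1 at 10.52 to 10.69 against 11.11 to 11.26.

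Chaperones of the endoplasmic reticulum, which fold secreted and membrane proteins, lay the same way at smaller size. Of 27 measured members of that list, 26 lay below 0 and 1 above, with a median of -0.168. The groups did not overlap in 16 (59.3%, against 5.84% of all autosomal genes), all lower with aspirin, and 8 had an unadjusted p under 0.05, as did 1.74% of all autosomal genes in that direction. Dnajb11, a J-domain partner of the ER Hsp70, read 9.31, 9.45 and 9.31 with aspirin and 9.60, 9.65 and 9.63 with triptolide (-0.27 ± 0.08). Pdia4, a protein disulphide isomerase, read 11.13, 11.28 and 11.25 with aspirin and 11.70, 11.62 and 11.37 with triptolide (-0.34 ± 0.10). Pdia6, another isomerase, read 10.07, 10.07 and 9.98 with aspirin and 10.37, 10.54 and 10.30 with triptolide (-0.36 ± 0.11). All 3 kept the groups apart. Hspa5, the ER Hsp70 also called BiP, was named after its values were seen. It read 11.93, 11.89 and 11.78 with aspirin and 12.20, 12.07 and 12.19 with triptolide (-0.28 ± 0.09). The list stood at -0.14, -0.05 and -0.11 with aspirin, 0.08, 0.13 and 0.02 with triptolide, and -0.06 and 0.01 on the controls. Its median against triptolide 3 alone was -0.121, with 18 of 27 members apart (66.7%, against 21.6% of all autosomal genes).

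Genes of antigen presentation on MHC class II lay lower with aspirin. In bulk lung RNA, fewer cells of a type and less RNA per cell cannot be told apart. Of 17 measured members, 15 lay below 0 and 2 above, with a median of -0.332, the furthest below 0 of the 45 lists. The groups did not overlap in 8 (47.1%, against 5.84% of all autosomal genes), all lower with aspirin, and 8 had an unadjusted p under 0.05 (1.74% of all autosomal genes). Cd74, the invariant chain that guides class II molecules, read 12.60, 12.64 and 12.95 with aspirin and 13.15, 13.23 and 13.04 with triptolide (-0.41 ± 0.11). Ciita, the transcription factor that switches on class II genes, read 9.10, 8.95 and 9.16 with aspirin and 9.42, 9.51 and 9.33 with triptolide (-0.35 ± 0.09). Neither gene's arrays overlapped between the drugs. H2-DMa, which helps load peptides, read 9.99, 10.15 and 10.36 with aspirin and 10.72, 10.91 and 10.41 with triptolide (-0.51 ± 0.13). H2-Ab1, a class II chain, read 12.18, 12.07 and 12.43 with aspirin and 12.70, 12.78 and 12.56 with triptolide (-0.46 ± 0.12). Aspirin 3 was the highest aspirin array in these 4 genes. Here the controls lay near triptolide, since the median difference from the shared controls was -0.232 with aspirin and 0.059 with triptolide. Against triptolide 3 alone the median was -0.254, with 10 of 17 members apart (58.8%, against 21.6% of all autosomal genes).

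Genes of antibody secretion leaned the same way. Of 15 measured plasma cell genes, 12 lay below 0 and 3 above, with a median of -0.215; 6 (40%, against 5.84% of all autosomal genes) did not overlap, all lower with aspirin, and 4 had an unadjusted p under 0.05 (1.74% of all autosomal genes). Igha, the constant region of IgA, read 9.39, 10.22 and 10.31 with aspirin and 11.14, 10.44 and 11.03 with triptolide (-0.90 ± 0.25). Derl3, which takes part in ER-associated degradation, read 8.65, 8.84 and 8.8 with aspirin and 9.38, 9.12 and 8.89 with triptolide (-0.37 ± 0.12). Irf4, a transcription factor of plasma cells, differed by -0.37 ± 0.13 and Creld2, an ER protein also on the ER list, by -0.34 ± 0.10. None of these 4 genes overlapped between the drugs. The list level was -0.43, -0.10 and -0.09 with aspirin and 0.23, -0.07 and -0.06 with triptolide, so aspirin 1 and triptolide 1 lay furthest apart. Against triptolide 3 the median was -0.054.

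Platelet genes lay higher with aspirin, and by more than any other list. All 16 measured members lay above 0, with a median of 0.678. The groups did not overlap in 12 (75%), all higher with aspirin, where 4.03% of all autosomal genes did so. The same number had an unadjusted p under 0.05, as did 1.53% of all autosomal genes in that direction. The platelet list too was picked for its extreme median, so these shares are not separate support. Clec1b, the platelet receptor for podoplanin, read 7.42, 7.97 and 7.52 with aspirin and 6.88, 7.10 and 7.08 with triptolide (0.62 ± 0.13). Treml1, a receptor of platelet granules, read 9.08, 9.57 and 9.04 with aspirin and 8.76, 8.46 and 8.68 with triptolide (0.60 ± 0.16). Aspirin 2 was the highest array in both. Nrgn, a calmodulin-binding protein, read 9.86, 10.39 and 9.94 with aspirin and 9.29, 9.36 and 9.69 with triptolide (0.62 ± 0.19). Itgb3, a chain of the fibrinogen receptor, read 9.89, 11.42 and 10.29 with aspirin and 9.65, 9.38 and 9.71 with triptolide (0.95 ± 0.33). Ppbp, a chemokine of platelet granules named after its values were seen, had the largest difference of all autosomal genes. It read 10.11, 13.20 and 11.71 with aspirin and 8.42, 9.53 and 9.91 with triptolide (2.39 ± 0.98).

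The platelet list stood at 0.03, 1.37 and 0.40 on the aspirin arrays, -0.38, -0.25 and -0.06 on the triptolide arrays, 0.42, -0.50 and -0.31 on the combination arrays and -0.38 and -0.36 on the controls. Aspirin 2 was the highest of the 11 arrays, and the triptolide arrays did not reach the aspirin arrays. Without aspirin 2 the median was 0.440, with 15 of 16 members above 0 and 12 apart (75%, against 14.3% of all autosomal genes). Against triptolide 3 alone it was 0.578, with 13 of 16 members apart (81.2%, against 17.4%). The medians from the shared controls were 0.813 with aspirin and 0.078 with triptolide. Those controls differed from the aspirin arrays, and from triptolide 2 and triptolide 3, in Xist and Y-linked levels as well. Differences by drug and by these levels cannot be told apart.

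Other blood cell genes were also highest on aspirin 2 among the aspirin arrays. Of 16 measured erythroid genes, 15 lay above 0 with a median of 0.265, and 6 (37.5%, against 4.03% of all autosomal genes) did not overlap, all higher with aspirin. Slc4a1, the anion exchanger of red cells, read 8.87, 11.21 and 10.38 with aspirin and 8.13, 8.07 and 8.68 with triptolide (1.86 ± 1.05). The list stood at -0.21, 0.10 and -0.12 with aspirin and -0.34, -0.58 and -0.34 with triptolide, and combination 1, at 2.70, widened the shared estimate of the spread. For neutrophil genes, 17 of 22 lay above 0 with a median of 0.345, but no member kept aspirin above triptolide on all arrays. Their list level was -0.37, 1.80 and -0.47 with aspirin and -0.13, -0.15 and 0.16 with triptolide. Aspirin 2 alone was high, and without it the median was -0.446. Ly6g, a neutrophil surface protein, read 6.74, 10.78 and 6.45 with aspirin and 6.47, 6.39 and 7.30 with triptolide, and its difference of 1.27 ± 0.89 became -0.12 without aspirin 2. Levels of the platelet, erythroid and neutrophil lists were all highest among the aspirin arrays on aspirin 2; the part of blood content in the results was not tested.

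**Figure D3:**
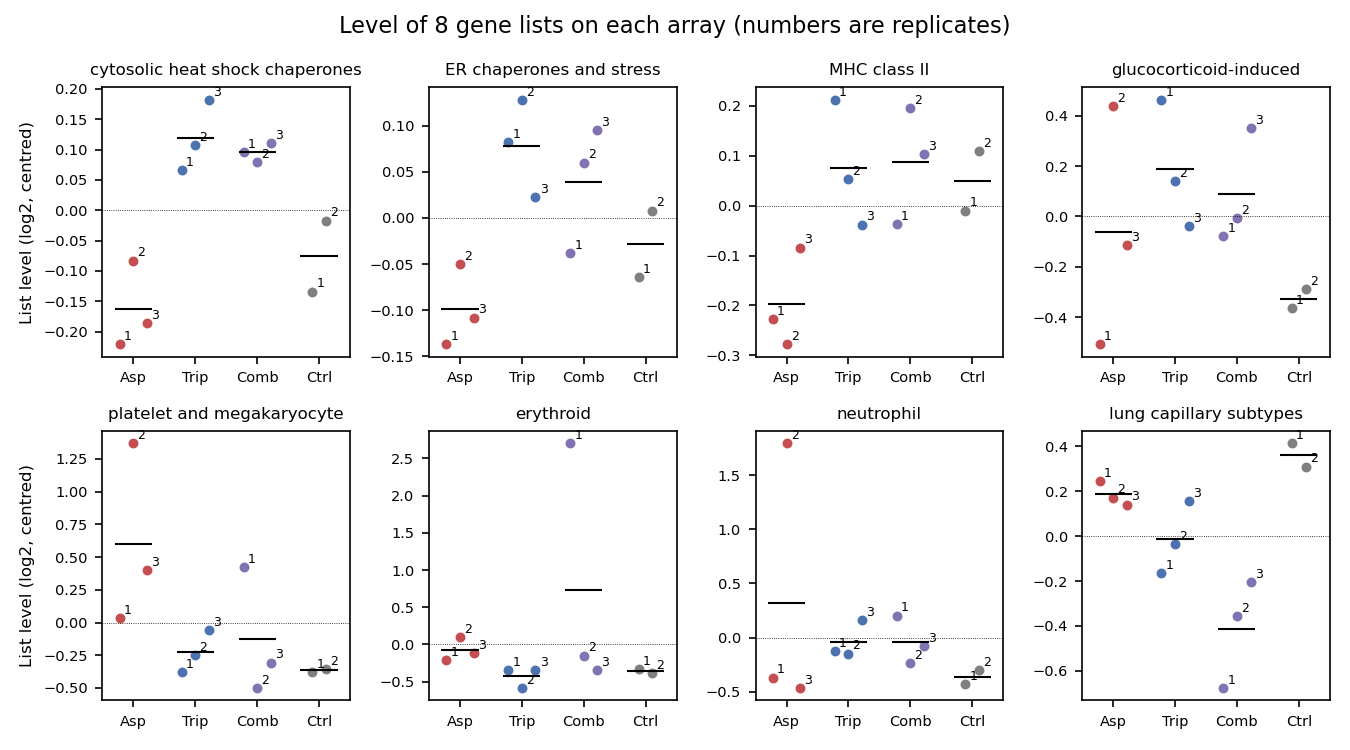
Level of 8 gene lists on each array (mean of the members after centring each gene over the 11 arrays, log2, vertical axes with their own ranges), for aspirin (Asp), triptolide (Trip), the combination (Comb) and control (Ctrl); numbers are replicates and bars are group means. Heat shock and ER chaperones separate the drugs on all 3 arrays of each, while the neutrophil level is 1.80 on aspirin 2 and below -0.36 on the other aspirin arrays.

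Of the 12 higher genes with the smallest p, 4 are known from blood vessel endothelium or from BMP signalling, which patterns vessels. Smad6, an inhibitor in BMP signalling, read 10.93, 11.13 and 10.90 with aspirin and 10.36, 10.43 and 10.60 with triptolide (0.52 ± 0.10). Gja4, a connexin of arterial endothelium, read 9.71, 9.66 and 9.83 with aspirin and 8.95, 9.27 and 9.24 with triptolide (0.58 ± 0.11). Neither gene's groups overlapped, and the controls read 9.94 and 9.83 in Gja4, near aspirin. Eng, an endothelial co-receptor for BMP and TGF-beta ligands, read 12.96, 13.02 and 12.92 with aspirin and 12.42, 12.44 and 12.80 with triptolide (0.41 ± 0.12). Sema3g, an arterial semaphorin, read 10.15, 10.15 and 10.06 with aspirin and 9.74, 9.66 and 9.89 with triptolide (0.36 ± 0.09). Triptolide 3 was the triptolide array nearest to aspirin in Smad6, Eng and Sema3g. Bmp6, a BMP ligand, read 11.53, 11.64 and 11.37 with aspirin and 10.87, 10.95 and 11.39 with triptolide (0.44 ± 0.14). Its groups overlapped, since triptolide 3 lay above aspirin 3. Acvrl1, a BMP receptor of endothelium, read 11.93, 11.83 and 11.82 with aspirin and 11.49, 11.51 and 11.75 with triptolide (0.28 ± 0.13), with no overlap.

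Of 17 measured BMP and Id genes, 12 lay above 0 with a median of 0.136, and 6 (35.3%, against 4.03% of all autosomal genes) did not overlap, all higher with aspirin. The median was 0.059 without triptolide 1 and 0.031 against triptolide 3. Of 13 capillary genes, 12 lay above 0 with a median of 0.249, and 3 (23.1%, against 4.03% of all autosomal genes) did not overlap. Without aspirin 2 these were 6 (46.2%), where the share of all autosomal genes was 14.3%. The capillary list stood at 0.24, 0.17 and 0.14 with aspirin, -0.17, -0.03 and 0.16 with triptolide, -0.68, -0.36 and -0.20 on the combination arrays and 0.41 and 0.31 on the controls, so that triptolide 3 lay among the aspirin values. Its median was 0.157 without triptolide 1 and 0.091 against triptolide 3. Ednrb, an endothelin receptor of lung capillaries, read 11.37, 11.20 and 11.33 with aspirin and 10.74, 10.89 and 11.22 with triptolide (0.35 ± 0.16). Aspirin 2 and triptolide 3 overlapped, and Kdr, the main VEGF receptor, differed by 0.34 ± 0.18. Chst1, a sulphotransferase, differed by 0.26 ± 0.11 and Kit, a receptor kinase, by 0.25 ± 0.12, which became -0.04 against triptolide 3. The wider endothelial list, described after its values were seen, had 20 of 23 members above 0 and a median of 0.196, which was 0.008 against triptolide 3. Its medians from the shared controls were -0.141 with aspirin and -0.372 with triptolide.

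**Figure D4:**
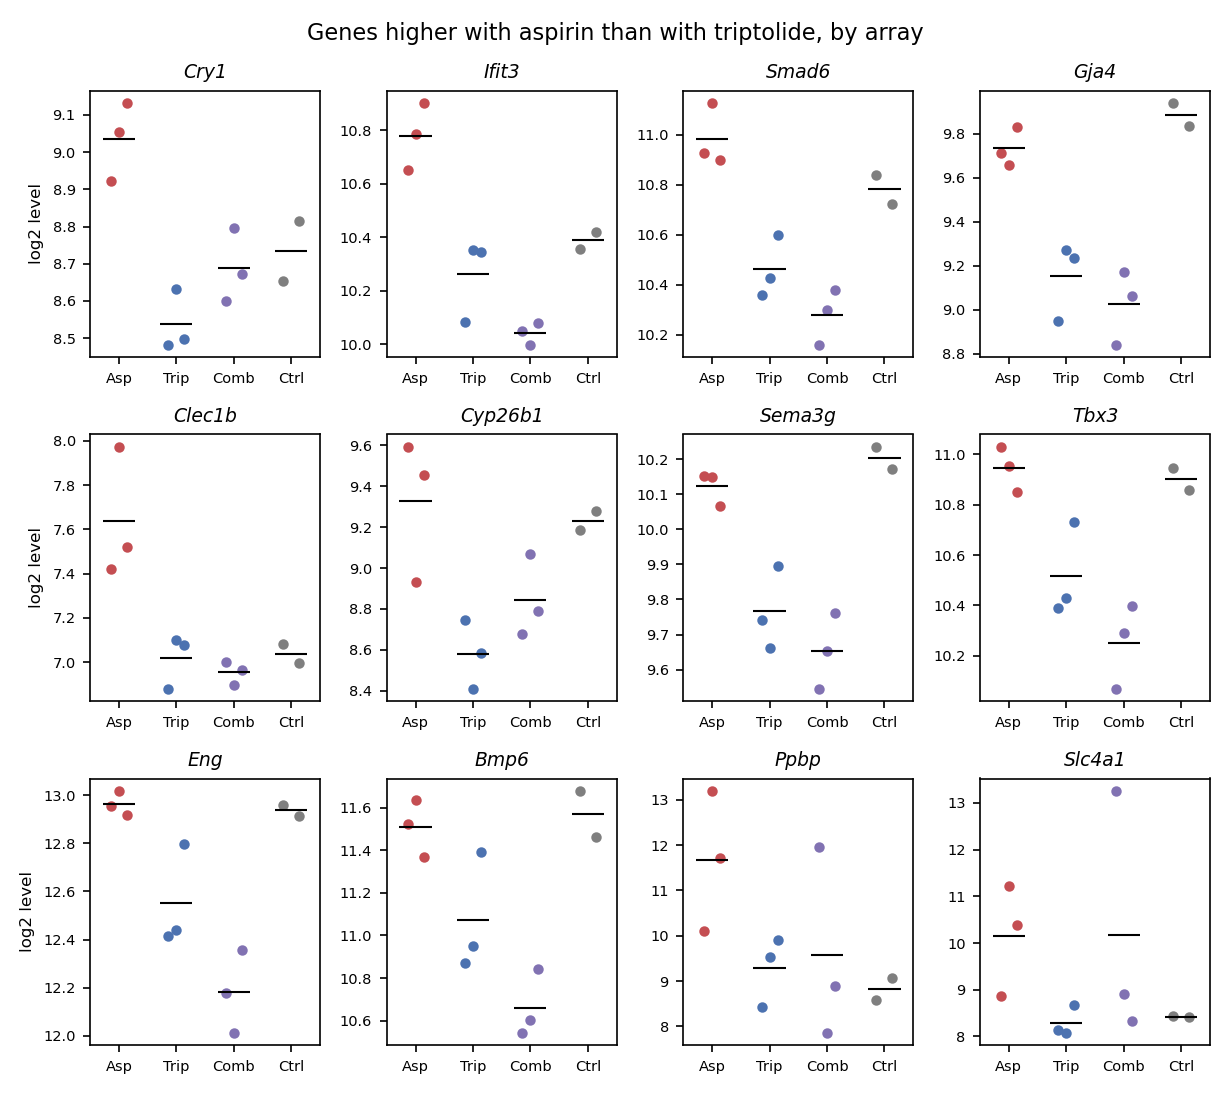
Log2 level on each array (vertical axes, each with its own range) of 12 genes that lay higher with aspirin than with triptolide, with groups and bars as in the plot of chaperone genes. Gja4 reads 9.66 to 9.83 with aspirin against 8.95 to 9.27 with triptolide, and in Bmp6 the triptolide 3 point, at 11.39, lies among the aspirin points.

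The gene with the smallest p among the higher genes was Cry1, a repressor of the circadian clock. It read 8.92, 9.05 and 9.13 with aspirin and 8.48, 8.63 and 8.50 with triptolide (0.50 ± 0.09), with controls at 8.65 and 8.81. Its groups did not overlap, and its limma adjusted p was 0.960 like that of the other genes named here by smallest p. The PAR bZIP genes, transcription factors that follow the clock, did not separate the drugs. Of 4 measured, 2 lay above and 2 below 0, with a median of 0.102, and none kept the groups apart. Tef read 10.02, 10.24 and 10.73 with aspirin and 9.95, 10.39 and 9.96 with triptolide (0.23 ± 0.20), and Hlf 8.63, 8.90 and 9.65 with aspirin and 8.51, 9.18 and 8.82 with triptolide (0.22 ± 0.25). Aspirin 3 was the highest array in both, and the list median was -0.021 without it. The RefSeq promoter of Tef held 2 matches to CACGTG or TTANNTAA and that of Hlf 0; 7.2% of all promoters hold the first and 6.0% the second string.

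Interferon-induced genes were mostly above 0 by small amounts. Of 23 measured, 19 lay above and 4 below 0, with a median of 0.107, and 1 (4.35%) did not overlap, against 4.03% of all autosomal genes. That gene was Ifit3, an RNA-binding antiviral protein, which read 10.65, 10.78 and 10.90 with aspirin and 10.08, 10.35 and 10.35 with triptolide (0.52 ± 0.10). Rsad2, the antiviral enzyme viperin, read 7.94, 10.87 and 9.65 with aspirin and 7.51, 7.42 and 8.19 with triptolide (1.78 ± 0.87), and it read 10.84 on combination 1. Its groups overlapped, because aspirin 1 lay below triptolide 3. Oas1a differed by 0.24 ± 0.11 and Oas3, another sensor of double-stranded RNA, by 0.37 ± 0.20, and both overlapped. The list median was 0.020 without aspirin 2, 0.224 without aspirin 3, 0.053 without triptolide 2 and 0.040 against triptolide 3.

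Cytochrome P450 and flavin monooxygenase genes, which metabolise foreign compounds, all lay above 0. The 15 measured members had a median of 0.156 and ranged from 0.03 for Cyp2f2 to 0.29 for Ces1f, a carboxylesterase; 6 (40%, against 4.03% of all autosomal genes) did not overlap, and none had an unadjusted p under 0.05. Cyp4b1 read 13.22, 13.22 and 13.17 with aspirin and 12.90, 12.85 and 13.09 with triptolide (0.25 ± 0.14). Fmo1 read 12.79, 12.71 and 12.78 with aspirin and 12.37, 12.43 and 12.64 with triptolide (0.28 ± 0.16), and Fmo5 differed by 0.16 ± 0.14. No overlap was seen in any of these genes, although each interval of the difference included 0. Against triptolide 3 the median was 0.123, with 11 of 15 members apart (73.3%, against 17.4% of all autosomal genes).

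The other higher genes of smallest p belong to no list described here. Cyp26b1, which degrades retinoic acid, read 9.59, 8.93 and 9.45 with aspirin and 8.75, 8.41 and 8.58 with triptolide (0.75 ± 0.17). Tbx3, a T-box transcription factor, differed by 0.43 ± 0.12, Hamp2, a hepcidin gene, by 0.36 ± 0.10, and Cpa5, a carboxypeptidase, by 0.32 ± 0.10. Among the lower genes of smallest p, Naip5, a sensor of bacterial flagellin, read 7.19, 7.30 and 7.42 with aspirin and 7.65, 8.10 and 7.73 with triptolide (-0.53 ± 0.13). Ppp4r2, a subunit of protein phosphatase 4, differed by -0.43 ± 0.11, Ubfd1 by -0.33 ± 0.08, and Acadl, which oxidises long-chain fatty acids, by -0.33 ± 0.08. None of these 8 genes overlapped between the drugs, which goes with their choice by smallest p. Of all autosomal genes, 9.88% did not overlap.

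Several lists had low medians that rested on a few arrays. Of 14 glucocorticoid-induced genes, 12 lay below 0 with a median of -0.303, but none kept the groups apart. The list stood at -0.51, 0.44 and -0.11 with aspirin, 0.46, 0.14 and -0.04 with triptolide and -0.36 and -0.29 on the controls. Aspirin 2 lay beside triptolide 1, and the median was -0.629 without aspirin 2, -0.053 without aspirin 1, -0.176 without triptolide 1 and 0.025 against triptolide 3. Dusp1, a phosphatase of MAP kinases, read 11.43, 12.45 and 11.88 with aspirin and 12.43, 11.99 and 12.68 with triptolide (-0.45 ± 0.26). Errfi1, an inhibitor of the EGF receptor, differed by -0.41 ± 0.22, Angptl4, an inhibitor of lipoprotein lipase, by -0.47 ± 0.26, and Ddit4, an inhibitor of mTORC1 signalling, by -0.39 ± 0.24. All 4 genes overlapped between the drugs.

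Of 27 chemokine ligands, 18 lay below 0 with a median of -0.187; 3 (11.1%, against 5.84% of all autosomal genes) lay lower without overlap and 1 (3.7%, against 4.03%) higher. Ccl22, a ligand of Ccr4, read 7.72, 7.54 and 7.58 with aspirin and 8.20, 7.95 and 7.82 with triptolide (-0.37 ± 0.17), without overlap. Ccl17, which binds the same receptor, read 8.66, 9.04 and 8.47 with aspirin and 10.17, 9.52 and 8.74 with triptolide (-0.75 ± 0.35), and its groups overlapped. Ccl5 differed by -0.44 ± 0.21 with overlap, and Cxcl15, made by lung epithelium, by -0.42 ± 0.24 without. The median was -0.031 without triptolide 1 and -0.017 against triptolide 3.

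Of 13 alveolar macrophage genes, 12 lay below 0 with a median of -0.265, and none kept aspirin below triptolide on all arrays. Mmp12, the macrophage elastase, read 7.99, 8.06 and 7.67 with aspirin and 9.10, 8.87 and 7.91 with triptolide (-0.72 ± 0.28), and the difference was 0.00 against triptolide 3. Fabp1, a fatty acid binding protein, differed by -0.39 ± 0.20, Ctsk, a cathepsin, by -0.55 ± 0.40 and Marco, a scavenger receptor, by -0.26 ± 0.21. The list median was -0.041 without triptolide 1, -0.083 without aspirin 1 and 0.139 against triptolide 3. Of 18 alveolar type 2 and surfactant genes, 17 lay below 0 with a median of -0.264, and 1 (5.56%) kept the groups apart, against 5.84% of all autosomal genes. Fasn, which makes fatty acids, read 11.66, 12.09 and 11.72 with aspirin and 12.26, 12.45 and 11.95 with triptolide (-0.40 ± 0.20). Triptolide 2 was the highest array, and the groups overlapped. Il33, an alarmin cytokine, differed by -0.51 ± 0.26, Napsa, an aspartic protease that processes surfactant protein, by -0.45 ± 0.19, and Lpcat1, which makes surfactant lipid, by -0.29 ± 0.15. The list median was -0.119 without triptolide 2 and -0.048 against triptolide 3.

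The other 29 lists had medians between -0.173 and 0.196. Aspirin and triptolide arrays did not overlap in list level for 4 lists higher and 7 lower with aspirin, of 45. Of single autosomal genes, 4.03% lay higher and 5.84% lower without overlap. A list level is a mean over genes and some lists share members, so the counts of lists cannot be read against these shares.

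The transcripts of known or proposed drug targets, and of genes fixed beforehand as checks, did not pass the adjusted test. Ptgs2, the inducible cyclooxygenase, read 9.51, 10.68 and 9.79 with aspirin and 10.43, 10.25 and 10.37 with triptolide, a difference of -0.35 ± 0.29 with a 95% interval of -1.0 to 0.29. Aspirin 2 was the highest array. Of 21 measured genes of prostanoid synthesis and reception, 10 lay above and 11 below 0, with a median of -0.036. Ercc3, the triptolide target, read 10.25, 10.33 and 10.31 with aspirin and 10.31, 10.35 and 10.34 with triptolide (-0.04 ± 0.07, interval -0.20 to 0.12). All 9 measured TFIIH subunits lay below 0, at -0.12 for Cdk7 to -0.02 for Gtf2h3, and none kept the groups apart. All 9 also lay below 0 without triptolide 1. Without aspirin 2, however, 2 lay above and 7 below 0, and against triptolide 3 alone 4 lay above and 5 below. For Ercc3 the sign turned under quantile normalization, at 0.01. Rela, a subunit of NF-kB, differed by -0.03 ± 0.11 (interval -0.26 to 0.21), and its sign turned without triptolide 2 or triptolide 3, at 0.02 and 0.03. Of 22 measured NF-kB target and feedback genes, 17 lay below and 5 above 0, with a median of -0.092. Without overlap, 6 (27.3%, against 5.84% of all autosomal genes) lay lower with aspirin and 1 (4.55%, against 4.03%) higher. Myc, a short-lived transcript of a growth regulator, read 8.94, 9.05 and 9.09 with aspirin and 9.61, 9.61 and 9.43 with triptolide (-0.53 ± 0.28, interval -1.14 to 0.09). Its groups did not overlap, and combination 1, at 10.81, stood far above the others. Mki67 differed by -0.12 ± 0.86, with an interval of -2.01 to 1.77 that covers sizeable differences either way.

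Set beside the other groups, genes that kept the drugs apart often had the controls in the middle. Of the 773 genes higher with aspirin, the control mean lay between the drugs in 454 (58.7%), beyond aspirin in 157 (20.3%) and beyond triptolide in 162 (21%). Of the 1120 lower genes, it lay between in 696 (62.1%), beyond aspirin in 124 (11.1%) and beyond triptolide in 300 (26.8%). Over all autosomal genes the control mean lay between the drugs in 35.8%. The combination mean was nearer triptolide than aspirin in 58.2% of the higher and 52.2% of the lower genes, and in 41.1% of all autosomal genes. Without combination 1 these shares were 60.8% of the higher genes, 47.4% of the lower genes and 41% of all autosomal genes. Most lower genes were then nearer aspirin, as were most of all autosomal genes, whose share nearer triptolide was smaller still. These shares describe genes chosen for their separation and carry no test. The control and combination arrays also differed from the aspirin arrays, and from triptolide 2 and triptolide 3, in Xist and Y-linked levels.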

How the data were processed

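Lung RNA of 11 mouse samples was hybridised, 1 Affymetrix array each. The deposited value table holds log2 values made by the authors; RMA and Partek are named, per the submitters' processing notes, with no version or order given in the sources used here. Of 35556 rows, 21789 had 1 gene symbol, 1621 several and 12146 were not listed in the platform annotation; 19938 genes remained. Detection calls were not used here. The small number of arrays limits precision.

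Groups came from the sample titles. A linear model with moderated variances (limma 3.58.1, R 4.3.3, two-sided) was fitted to all 11 arrays in 4 groups, with Benjamini-Hochberg adjustment over all 19938 genes and a threshold of 0.05, and was tested on simulated data. Named genes are the 12 with the smallest p in each direction, since none passed, leaving out predicted genes, gene segments and small RNAs. Added to these are up to 4 members of 16 described lists (4 per direction among pathways and among markers) and fixed drug targets and checks. Of 816 listed symbols, 748 were measured and autosomal. The members and lists were chosen with earlier results of these data known. Promoter sequences are RefSeq's; those of Tef and Hlf were searched but are not printed. Normalization, filter, array weights, replicate block, a Y-linked covariate and left-out arrays were varied.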

Additional observations from a re-analysis of the deposited data

How the results depend on the processing

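Under 23 alternatives the number of genes passing was 0, except with gene-by-gene array weights, where 131 passed and 3481 had an unadjusted p under 0.05; 16 of the 24 genes of smallest p were among those passing. The planned array weights did not converge, giving aspirin 3 a weight of 43.5, and were not run further. The count at an unadjusted p was 1158 with a covariate for Y-linked level, 290 for aspirin 1 to 3 against triptolide 3, 1955 without aspirin 2 and triptolide 1 together (added after seeing the data), and 311 to 1254 without 1 array. The cause of these shifts was not tested. Same-numbered samples deviated with correlations of 0.304, 0.25 and -0.139, which leaves a pairing by number unsettled; with the replicate block 0 genes passed and 911 had an unadjusted p under 0.05.

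Signs turned as follows. Under quantile normalization Ercc3 was 0.01 and Rela 0.00. With array weights Ly6g was -0.22, Camp -0.03, Il1f9 -0.18, Gata2 -0.03 and Mki67 0.02. Against triptolide 3, Kit was -0.04, Mmp12 0.00, Ctsk 0.18, Marco 0.19, Mki67 0.38 and Clca1 0.12. Leaving out 1 array at a time gave ranges of -0.44 to 0.09 for Mki67 (above 0 without aspirin 1, and at 0.02 without triptolide 2), -0.12 to 2.04 for Ly6g and -0.18 to 1.18 for Il1f9 (both below 0 without aspirin 2). The ranges were 0.00 to 0.67 for Trem1, -0.07 to 0.44 for Hlf (below 0 without aspirin 3) and -0.13 to 0.03 for Rela (above 0 without triptolide 2, at 0.02, and without triptolide 3). Without aspirin 2 and triptolide 1, Trem1 was -0.02, Ly6g -0.25 and Il1f9 -0.30.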

Other observations

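The genes with a difference of 1 or more in size were named after their values were seen, and none passed the adjusted test. Of these 15, 10 lay above and 5 below 0. Bpgm, an enzyme of red cell metabolism, read 9.10, 10.85 and 10.18 with aspirin and 8.43, 8.75 and 8.93 with triptolide (1.34 ± 0.55). Ube2l6, an enzyme that attaches the interferon-induced protein ISG15, read 10.42, 12.25 and 11.44 with aspirin and 9.84, 9.94 and 10.36 with triptolide (1.32 ± 0.57). In both genes aspirin 2 was highest, the groups did not overlap and combination 1 was high too, at 10.51 and 12.01.

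Genes of airway mucus were among the lowest with aspirin but varied widely within triptolide. Clca1, a protein of mucous cells, read 7.41, 7.91 and 7.45 with aspirin and 11.80, 9.13 and 7.47 with triptolide (-1.88 ± 1.15). Muc5b, an airway mucin, read 8.53, 10.22 and 8.58 with aspirin and 11.29, 9.35 and 10.37 with triptolide (-1.23 ± 0.53). Bpifb1, a secreted airway protein, read 8.58, 10.71 and 8.81 with aspirin and 11.67, 9.31 and 10.89 with triptolide (-1.25 ± 0.67). The groups overlapped in all 3, and triptolide 1 was the highest array of both drugs in each. The list of club and mucous cell genes had 11 of 17 members below 0 and a median of -0.171, which was 0.026 without triptolide 1.

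Adck1, a mitochondrial kinase-like protein, read 5.52, 8.83 and 8.85 with aspirin, 9.44, 8.77 and 9.24 with triptolide and 7.39 and 7.25 on the controls. Aspirin 1 was the lowest of these arrays, and both controls also lay below all the other aspirin and triptolide arrays. Cardiac muscle genes had a median of 0.006, but their list level was 0.01, 0.39 and 0.09 on the aspirin arrays and -0.14, -0.21 and 0.80 on the triptolide arrays. Triptolide 3 stood highest, and the means of all 19 members were lower with aspirin against triptolide 3 alone.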
